A study of Mus musculus with 12 samples.

Results

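The insulin-like growth factor (IGF) axis was followed through 10 genes chosen by symbol, out of 34678 symbols measured: the binding protein genes Igfbp2, Igfbp3, Igfbp4, Igfbp5, Igfbp6 and Igfbp7, the ligand genes Igf1 and Igf2, and the receptor genes Igf1r and Igf2r. All 10 had an entry in every tumor, and 8 reached a mean of 0.1 FPKM (fragments per kilobase of transcript, scaled to the mapped fragments of each library) over the 12 tumors, the level needed for testing. The genes were chosen with results of these same tumors already known, so their differences between arms are given as a description and support no general statement about the axis.

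The tumors grew subcutaneously in C57BL/6 mice from LLC1-shLkb1 cells. LLC1 is the Lewis lung carcinoma line, and shLkb1 is a short hairpin RNA against Lkb1 (Stk11), the kinase gene lost in many human lung adenocarcinomas. Each of 4 arms held 3 tumors: vehicle, in which the study's methods give mice a control IgG, palbociclib, an oral inhibitor of the cell-cycle kinases CDK4 and CDK6, an anti-PD-1 antibody given into the peritoneum, and the combination of palbociclib with anti-PD-1. By the same methods, mice were of both sexes and treatment began about a week after injection. All arms carried the hairpin, and none lacked it, so the Stk11 level (7.90 to 11.5 FPKM over the 12 tumors) had no comparator. LLC1 is a lung carcinoma line, but Nkx2-1 and Sftpc, the defining genes of the lung alveolar lineage, were listed at 0 in all 12 tumors. Of the other 2 lung epithelial markers listed, Sftpb did not exceed 0.0945 FPKM and Napsa was above 0 in all 12, with a mean of 1.87 FPKM. Of the study's 4 carcinoma markers listed, only Krt8 was abundant, at 62.0 to 276 FPKM. Epcam did not exceed 1.81 FPKM (median 0.162), Krt18 5.08 FPKM (median 0.235) and Krt19 4.39 FPKM (median 0.0470). The highest Epcam value was in palbociclib replicate 2, which also had the highest skin keratinocyte markers.

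IGF1 and IGF2 are secreted growth factors that signal through the tyrosine kinase receptor IGF1R to the PI3K and AKT kinases. IGF2R, also the mannose 6-phosphate receptor, takes up IGF2 and delivers it to lysosomes. The binding proteins hold most IGF outside cells, and proteases such as the PAPPA enzymes release it again; several binding proteins also act on cells without IGF.

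In the tumors without palbociclib, transcripts of the axis were mainly those of Igfbp4, Igfbp3, Igfbp6 and Igf2r, while both ligand genes were low, Igf2 close to the detection limit. Igfbp3 was about 4-fold lower in the 6 tumors given palbociclib, and each of these lay below each of the other 6, as in 0.41% of all tested genes. Igfbp4 and Igf1r were lower in the combination than in vehicle tumors without passing the test. Igfbp6, Igfbp7 and Igf2r differed little between arms. The plot of all 10 genes by tumor shows these levels.

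**Figure D1:**
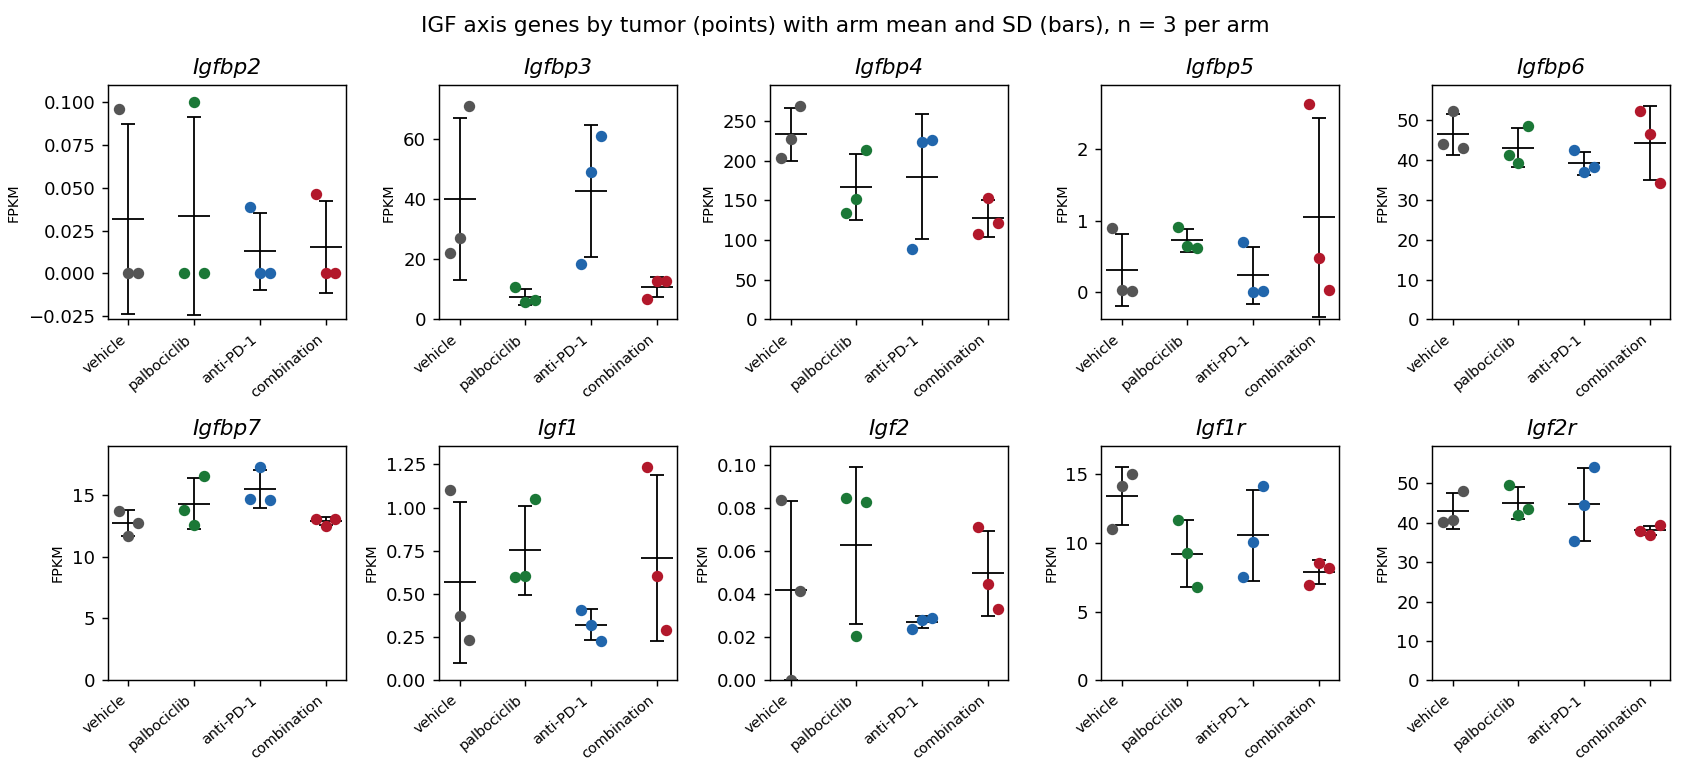
FPKM (vertical axes, a separate scale for each gene) of the 10 IGF axis genes in the 4 arms. Points are single tumors, long bars arm means and whiskers 1 SD (n = 3 per arm). Igfbp3 lies between 5.88 and 12.8 FPKM in the 6 palbociclib-treated tumors and between 18.4 and 71.05 FPKM in the other 6, while Igfbp2 and Igf2 never exceed 0.0998 FPKM.

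Of the 8 tested genes, Igfbp3, Igfbp4, Igf1r and Igf2r had all 3 combination tumors below all 3 vehicle tumors, as did 11.6% of all tested genes. The upstream sequences of these 4 are shown for that reason only. Each is the 250 bases before the RefSeq start site on GRCm38.p6, read 5′ to 3′ along the gene: chr11:7213924-7214173 on the minus strand for Igfbp3, chr11:99040994-99041243 on the plus strand for Igfbp4, chr7:67952007-67952256 on the plus strand for Igf1r and chr17:12769707-12769956 on the minus strand for Igf2r. Capitals mark the TATA-type letters TATAAA or TATATA and the GC box letters GGGCGG, on either strand.
Igfbp3: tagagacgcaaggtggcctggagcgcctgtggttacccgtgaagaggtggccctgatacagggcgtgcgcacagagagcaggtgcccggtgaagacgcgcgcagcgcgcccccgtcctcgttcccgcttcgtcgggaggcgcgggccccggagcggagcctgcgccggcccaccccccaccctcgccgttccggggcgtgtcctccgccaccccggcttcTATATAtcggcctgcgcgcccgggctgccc
Igfbp4: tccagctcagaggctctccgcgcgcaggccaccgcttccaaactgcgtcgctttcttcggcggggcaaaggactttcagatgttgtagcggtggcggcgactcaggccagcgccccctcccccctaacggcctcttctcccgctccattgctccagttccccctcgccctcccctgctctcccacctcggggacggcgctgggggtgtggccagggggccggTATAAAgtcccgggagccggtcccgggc
Igf1r: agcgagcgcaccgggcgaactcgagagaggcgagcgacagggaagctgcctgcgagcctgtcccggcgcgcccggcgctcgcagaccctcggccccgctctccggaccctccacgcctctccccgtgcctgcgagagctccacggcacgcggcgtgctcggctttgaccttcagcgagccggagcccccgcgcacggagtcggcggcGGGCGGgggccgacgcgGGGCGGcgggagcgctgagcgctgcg
Igf2r: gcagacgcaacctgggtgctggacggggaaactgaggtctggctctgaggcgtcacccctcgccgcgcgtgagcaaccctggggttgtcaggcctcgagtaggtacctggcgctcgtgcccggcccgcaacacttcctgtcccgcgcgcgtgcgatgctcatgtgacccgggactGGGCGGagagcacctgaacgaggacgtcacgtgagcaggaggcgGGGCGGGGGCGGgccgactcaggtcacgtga
The 2 binding protein genes had a TATA-type match close to the start, TATATA from base -30 in Igfbp3 and TATAAA from base -28 in Igfbp4, with -1 the last base before the start. No GC box letters were found in these 2 windows. The 2 receptor genes had the reverse pattern, with no TATA-type match, 2 GC box matches in Igf1r and 3 in Igf2r. Among 32817 RefSeq promoter windows of the same length, 2.74% held either TATA-type hexamer at 40 to 16 bases before the start on the gene's own strand, and 32.7% held GGGCGG on either strand. All 10 genes had a promoter entry. TTTCCCGC, the letters of an E2F site, the factors released when CDK4 and CDK6 inactivate RB, were in 0.893% of all windows and in none of those of the 10 genes. These are matches of letters in a short window and do not show binding. The RefSeq start coincides with the first base of the GENCODE gene for Igfbp3 and Igfbp4 but not for Igf1r and Igf2r.

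Igfbp3 encodes the main IGF carrier of serum and lies at chr11:7206086-7213923 (GRCm38, minus strand). In vehicle tumors it was measured at 22.1, 27.0 and 71.05 FPKM, and in anti-PD-1 tumors at 18.4, 49.2 and 61.1 FPKM. Palbociclib tumors had 10.7, 5.88 and 6.35 FPKM. Combination tumors had 6.82, 12.7 and 12.8 FPKM. The arms without palbociclib were both high and spread over a wide range, those with it were both low, and the lowest tumor without palbociclib (anti-PD-1 replicate 1) was above the highest with it. In order of arm means, anti-PD-1 (42.9 ± 22.0, SD, n = 3) and vehicle (40.04 ± 27.0) overlapped, as did combination (10.8 ± 3.43) and palbociclib (7.65 ± 2.66). Vehicle and combination were separate, with the combination tumors lower, as in 11.6% of all tested genes.

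Differences were fitted with limma on log2(FPKM + 0.1) across all 15350 tested genes. The palbociclib effect, the mean of palbociclib minus vehicle and combination minus anti-PD-1, was -2.05 for Igfbp3 (SE 0.36, 95% confidence interval -2.85 to -1.25, limma adjusted p = 0.0467), which is 4.14-fold lower. Igfbp3 was the only one of the 8 tested genes of the axis past the threshold of 0.05, where 0.313% of all tested genes passed it in either direction and 0.0651% as lower. It was also the only one of the 8 for which all 6 palbociclib-treated tumors lay below the other 6, as did 0.41% of all tested genes. Without anti-PD-1 the difference was -2.23 (SE 0.51, limma adjusted p = 0.128), and with anti-PD-1 it was -1.87 (SE 0.51, limma adjusted p = 0.327). The difference between these 2 effects was 0.36 (SE 0.72, 95% confidence interval -1.24 to 1.95, limma adjusted p = 0.971). Anti-PD-1 alone differed from vehicle by 0.13 (95% confidence interval -0.999 to 1.26).

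The call for Igfbp3 was close to the threshold. It was lost (limma adjusted p of 0.0663 to 0.146) on leaving out any single tumor among vehicle replicates 2 and 3, the 3 palbociclib replicates, anti-PD-1 replicates 2 and 3, and combination replicates 1 and 3, while the difference stayed between -2.31 and -1.79 whichever of the 12 tumors was left out.

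**Figure D2:**
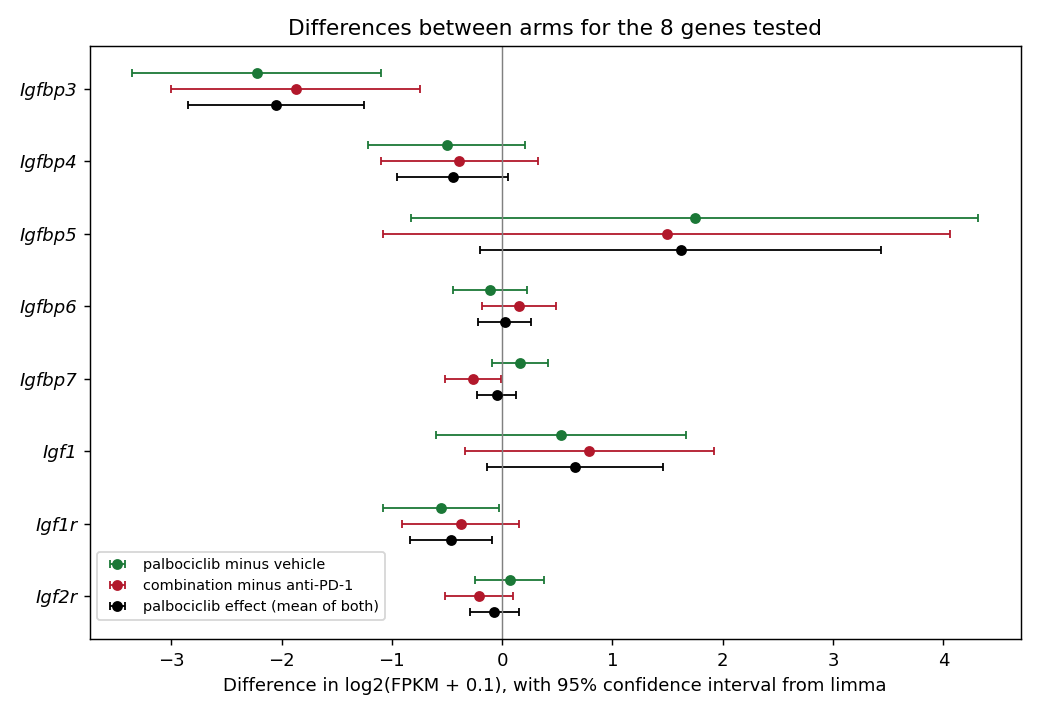
Differences in log2(FPKM + 0.1) (horizontal axis) for the 8 tested genes, as palbociclib minus vehicle (green), combination minus anti-PD-1 (red) and the mean of both (black). Points are limma estimates and whiskers 95% confidence intervals. For Igfbp3 all 3 intervals lie below 0, with the mean at -2.05. For Igfbp4, Igfbp5, Igfbp6, Igf1 and Igf2r all 3 include 0.

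Igfbp3 was lower in the same tumors in which some endothelial markers were lower. Cdh5, the cadherin of endothelial junctions, ranged from 7.99 to 18.1 FPKM without palbociclib and from 6.07 to 7.58 FPKM with it. Its palbociclib effect was -0.73 (SE 0.20, limma adjusted p = 0.110), and those of Pecam1 and Tie1 were -0.62 and -0.50. Of the 6 endothelial markers listed, 0 passed the limma test, 3 were lower at an unadjusted p under 0.05 (reached in either direction by 20.5% of all tested genes), and Kdr (0.25) and Tek (0.23) had positive differences. The summed level of the 6 was 22.1 to 38.0 FPKM in vehicle, 18.2 to 23.9 in palbociclib, 26.2 to 40.04 in anti-PD-1 and 17.2 to 23.8 in combination tumors, and no marker was at 0 in any arm. Of 6 mural cell markers, 2 were lower at an unadjusted p under 0.05, Pdgfrb (-0.59) and Notch3 (-0.49), against the same 20.5%, and 0 passed. The differences were negative for 4 of the 6 and positive for 2, Cspg4 and Myh11. In bulk tumors, fewer cells of a type and less RNA per cell cannot be told apart, and the part of endothelial or mural cells in the Igfbp3 difference was not tested.

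By Pearson correlation of log2(FPKM + 0.1) over the 12 tumors, the genes most like Igfbp3 among 11186 with a mean of at least 1 FPKM were Dll4 (r = 0.970, rho = 0.965), Fxr2 (r = 0.965, rho = 0.972) and Esm1 (r = 0.962, rho = 0.951). These are the highest of many values, and the 12 points share libraries and treatment. Dll4, a Notch ligand of sprouting endothelium, ranged from 0.972 to 3.75 FPKM. Fxr2, an RNA-binding protein gene, had a range of 28.7 to 36.0 FPKM, so its palbociclib effect was small (-0.19). Esm1, which encodes the endothelial proteoglycan endocan and carries an IGFBP-type domain, ranged from 0.432 to 18.95 FPKM with an effect of -2.72 (SE 0.57, limma adjusted p = 0.0715). In vehicle replicate 3 and anti-PD-1 replicate 3, Igfbp3, Dll4, Esm1, Cdh5 and Pecam1 all had their 2 highest values. Dll4 and Esm1 were selected for their likeness to Igfbp3 over these same tumors. Of the other endothelial markers listed, Tie1 had the same 2 top tumors. Tek was highest in combination replicate 1, Plvap in combination replicate 3 and Kdr in palbociclib replicate 2. The share of all genes with these top tumors was not computed.

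**Figure D3:**
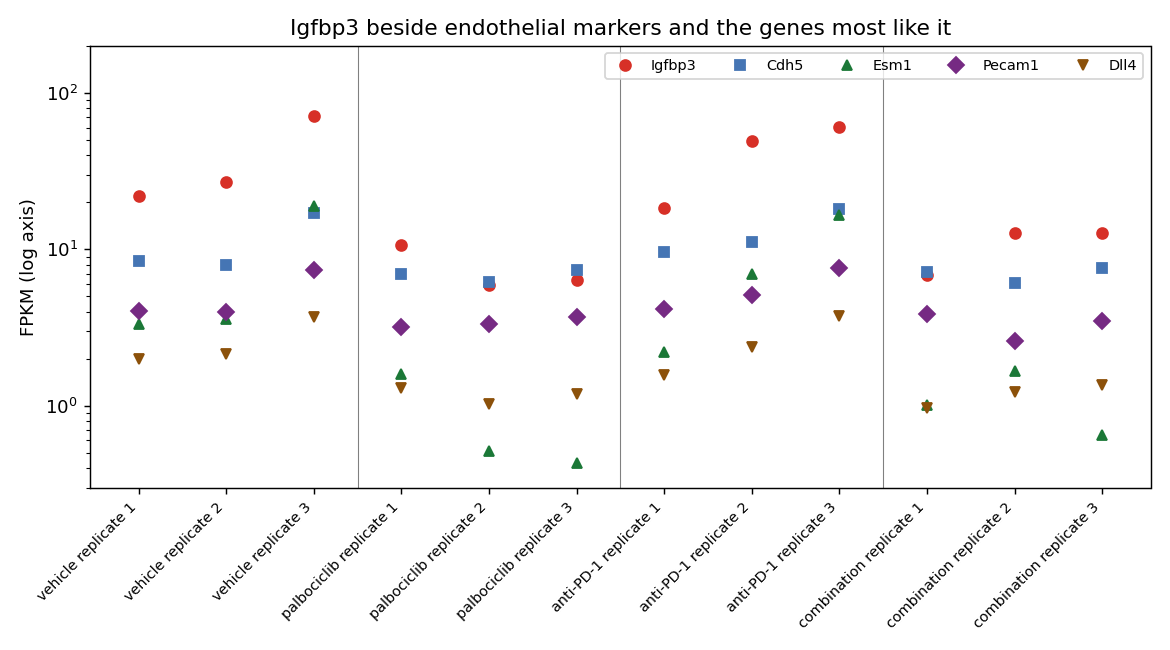
FPKM on a log axis of Igfbp3, the endothelial markers Cdh5 and Pecam1, and Esm1 and Dll4, among the 3 genes most like Igfbp3, in each of the 12 tumors (1 point per gene and tumor, arms divided by lines). All 5 genes are highest in vehicle replicate 3 and anti-PD-1 replicate 3, and Igfbp3 spans 5.88 to 71.05 FPKM where Cdh5 spans 6.07 to 18.1 FPKM. The listed endothelial markers Tek, Plvap and Kdr are not shown and are highest in other tumors.

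Igfbp4 (chr11:99041244-99054392, plus strand) encodes a binding protein that restrains IGF until PAPPA cleaves it, and was the most abundant transcript of the axis. Vehicle tumors had 203, 228 and 268 FPKM, and palbociclib tumors 135, 152 and 213 FPKM. Anti-PD-1 tumors had 89.1, 224 and 226 FPKM, and combination tumors 108, 153 and 122 FPKM. All 3 combination tumors were below the vehicle tumors, as in 11.6% of all tested genes. Palbociclib and anti-PD-1 tumors overlapped with vehicle, anti-PD-1 replicate 1 being the lowest of all 12. The difference between combination and vehicle was -0.88 (SE 0.32, 95% confidence interval -1.59 to -0.16, limma adjusted p = 0.231) and the palbociclib effect -0.45 (SE 0.23, limma adjusted p = 0.290). Without anti-PD-1 replicate 1 the palbociclib effect was -0.67 and passed the test (limma adjusted p = 0.0351). The genes most like Igfbp4 over the 12 tumors were Fam129a, Uaca and Phf1 (r of 0.940 to 0.944).

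Igfbp6 (chr15:102144362-102149511, plus strand), whose product prefers IGF2 over IGF1, was the steadiest of the abundant binding protein genes together with Igfbp7. It ranged from 34.2 to 52.3 FPKM over the 12 tumors, and the arm means lay between 39.2 ± 2.89 (anti-PD-1) and 46.4 ± 5.12 (vehicle). Neighbouring arms in that order all overlapped. The palbociclib effect was 0.02 (95% confidence interval -0.21 to 0.26, limma adjusted p = 0.923), and its sign changed in some alternatives. All 3 anti-PD-1 tumors (42.4, 36.9 and 38.3 FPKM) lay below the 3 vehicle tumors (44.0, 52.3 and 43.0 FPKM), as did 7.09% of all tested genes, with a difference of -0.24 (SE 0.15, limma adjusted p = 0.669).

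Igfbp7 (chr5:77349240-77408041, minus strand) encodes a related protein of low affinity for IGF that is found around blood vessels. Vehicle tumors had 13.7, 11.7 and 12.7 FPKM and anti-PD-1 tumors 14.6, 17.2 and 14.6 FPKM. Palbociclib tumors had 13.7, 12.6 and 16.55 FPKM, and combination tumors 13.05, 12.5 and 13.02 FPKM. The anti-PD-1 tumors lay above all vehicle tumors (4.25% of all tested genes did) and above all combination tumors (7.49% did). Anti-PD-1 minus vehicle was 0.28 (SE 0.12, limma adjusted p = 0.580), and combination minus anti-PD-1 was -0.26 (SE 0.12, limma adjusted p = 0.415). The effect of palbociclib differed by -0.42 between tumors with and without anti-PD-1 (95% confidence interval -0.78 to -0.06, limma adjusted p = 0.866, unadjusted 0.0252), so that the palbociclib effect averaged over both was -0.05. Igfbp7 overlaps Polr2b on the other strand, a gene with a mean of 43.1 FPKM, and since the strand setting of the counting is not given, reads from the 2 genes may not have been told apart.

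Igfbp5 (chr1:72857932-72874884, minus strand), a binding protein gene of connective tissue and muscle, was low. Vehicle tumors had 0.890, 0.0326 and 0.00992 FPKM, palbociclib tumors 0.912, 0.650 and 0.620 FPKM. Anti-PD-1 tumors had 0.699, 0 and 0.0109 FPKM, and combination tumors 2.64, 0.475 and 0.0248 FPKM. The values fell into 7 tumors at 0.475 FPKM or more and 5 at 0.0326 FPKM or less, and every arm but palbociclib held both. The palbociclib effect was 1.62 (SE 0.83, 95% confidence interval -0.20 to 3.44, limma adjusted p = 0.288), and depended on the pseudocount, at 0.51 with a pseudocount of 1 and 2.87 with 0.01. It was 1.06 without combination replicate 1, and 0.42 without palbociclib replicates 1 and 2 and combination replicates 1 and 2, which were high in fat, muscle or skin markers. That last fit kept only replicate 3 in each palbociclib-treated arm. Palbociclib replicate 3, which stayed in, had the highest summed muscle markers of all 12 tumors (164 FPKM). Igfbp2 (chr1:72824503-72852474, plus strand), which lies 5.46 kb from Igfbp5, was listed at 0 in 8 tumors and did not exceed 0.0998 FPKM, an estimated 8 fragments over all 12 tumors. No fold is given for it.

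Summed over the 6 binding protein genes, the level was 284 to 395 FPKM in vehicle, 201 to 285 in palbociclib, 165 to 340 in anti-PD-1 and 182 to 225 in combination tumors. Igfbp4 made up 53.9% to 74.7% of this sum in every tumor. The Igfbp3 share was 7.77%, 8.48% and 17.98% in vehicle and 11.1%, 15.0% and 17.97% in anti-PD-1 tumors. It was 5.33%, 2.80% and 2.23% in palbociclib and 3.73%, 5.64% and 7.03% in combination tumors. The ratio of Igfbp4 to Igfbp3, both per length, ran from 3.70 to 9.21 without palbociclib and from 9.53 to 33.6 with it. Neither the sum nor the ratio was tested, and the sums with and without palbociclib overlapped, the lowest of all 12 being that of anti-PD-1 replicate 1.

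**Figure D4:**
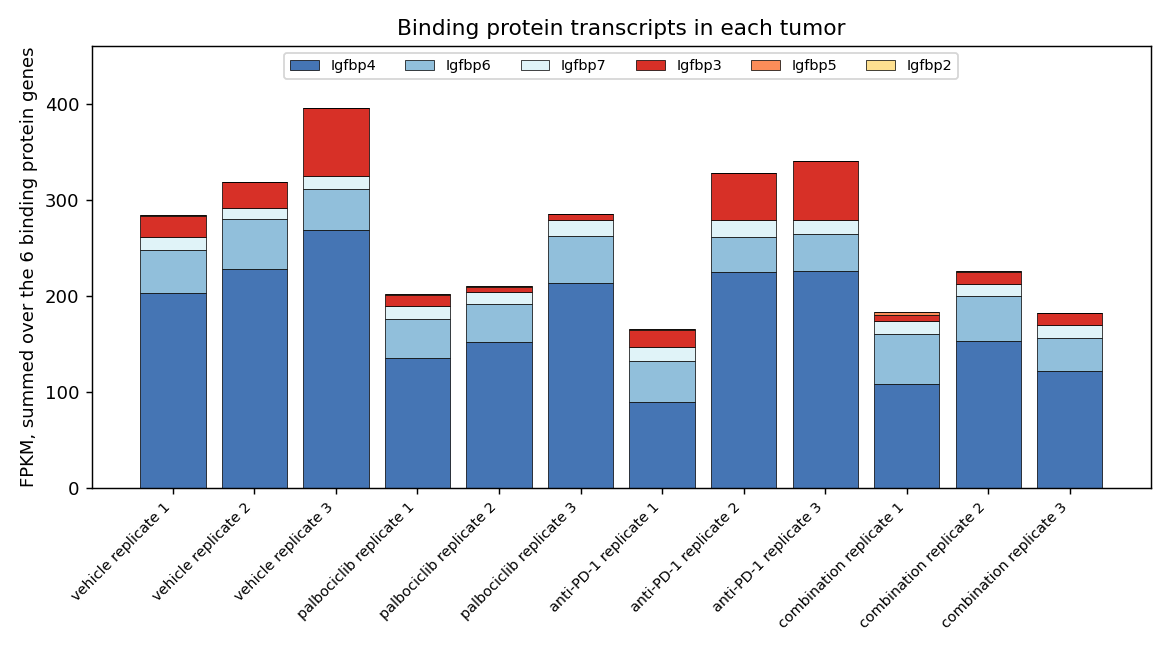
Stacked FPKM of the 6 binding protein genes (vertical axis, from 0) in each of the 12 tumors. Igfbp4 (dark blue) is the largest part of every bar, Igfbp3 (red) makes up 7.77% to 17.98% of the bar without palbociclib and 2.23% to 7.03% with it, and Igfbp5 and Igfbp2 are barely visible.

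Both ligand genes were low. Igf1 (chr10:87858265-87937042, plus strand), the growth hormone target that tumor macrophages and fibroblasts can also make, was measured at 1.1, 0.370 and 0.233 FPKM in vehicle and 0.601, 0.604 and 1.05 FPKM in palbociclib tumors. Anti-PD-1 tumors had 0.409, 0.322 and 0.230 FPKM, and combination tumors 1.24, 0.603 and 0.291 FPKM. All neighbouring arms overlapped. The palbociclib effect was 0.66 (SE 0.36, 95% confidence interval -0.14 to 1.46, limma adjusted p = 0.321), with 0.26 at a pseudocount of 1 and 0.44 without combination replicate 1. Igf2 (chr7:142650766-142666816, minus strand), the imprinted fetal growth factor gene, did not exceed 0.0844 FPKM, an estimated 52 fragments over all 12 tumors, and was not tested.

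The 7 tumors with the most Igfbp5 were also the 7 with the most Igf1 (0.409 FPKM or more, against 0.370 or less in the other 5). H19, the imprinted neighbour of Igf2, had the same 7 tumors at the top (0.236 to 3.47 FPKM, against 0.00867 to 0.195). So did the fibroblast genes Col1a1 (6.08 to 58.0 FPKM against 0.685 to 5.13), Col1a2 and Postn, and the adipocyte gene Adipoq (0.0807 to 101.7 FPKM against 0 to 0.0337). These were 3 of the 9 fibroblast and 1 of the 6 adipocyte markers listed, and none of the 6 muscle or 6 macrophage markers separated the tumors in this way. The split into 7 and 5 tumors was set by Igfbp5. How many of all tested genes separate the tumors in the same way was not computed, so these counts have no background to be read against. The other 5 adipocyte markers were at 0 in vehicle replicate 1, which was among the 7. Pdgfra, another fibroblast marker, had 3.54 to 7.35 FPKM in the 7 tumors and 5.42 to 10.34 FPKM in the other 5. These tumors were vehicle replicate 1, anti-PD-1 replicate 1, all 3 palbociclib replicates and combination replicates 1 and 2. The summed level of 6 adipocyte markers was at most 0.336 FPKM without palbociclib, and 2.46 to 70.1 FPKM in palbociclib and 0 to 188.6 FPKM in combination tumors. Over 6 skeletal muscle markers the sums were 0.791 to 54.1 FPKM in vehicle, 1.42 to 164 in palbociclib, 0.729 to 10.03 in anti-PD-1 and 0.859 to 149.7 in combination tumors. The 6 skin keratinocyte markers summed to 369 FPKM in palbociclib replicate 2 and to 1.12 FPKM or less in the other 11. Of 6 macrophage markers, 4 were higher with palbociclib at an unadjusted p under 0.05, against 20.5% of all tested genes in either direction, and 0 passed the limma test, with sums of 109.5 to 578 FPKM in vehicle, 460.2 to 758 in palbociclib, 126.5 to 441 in anti-PD-1 and 334 to 767 in combination tumors. The part of these tissues and cells in the Igfbp5 and Igf1 levels was not tested.

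**Figure D5:**
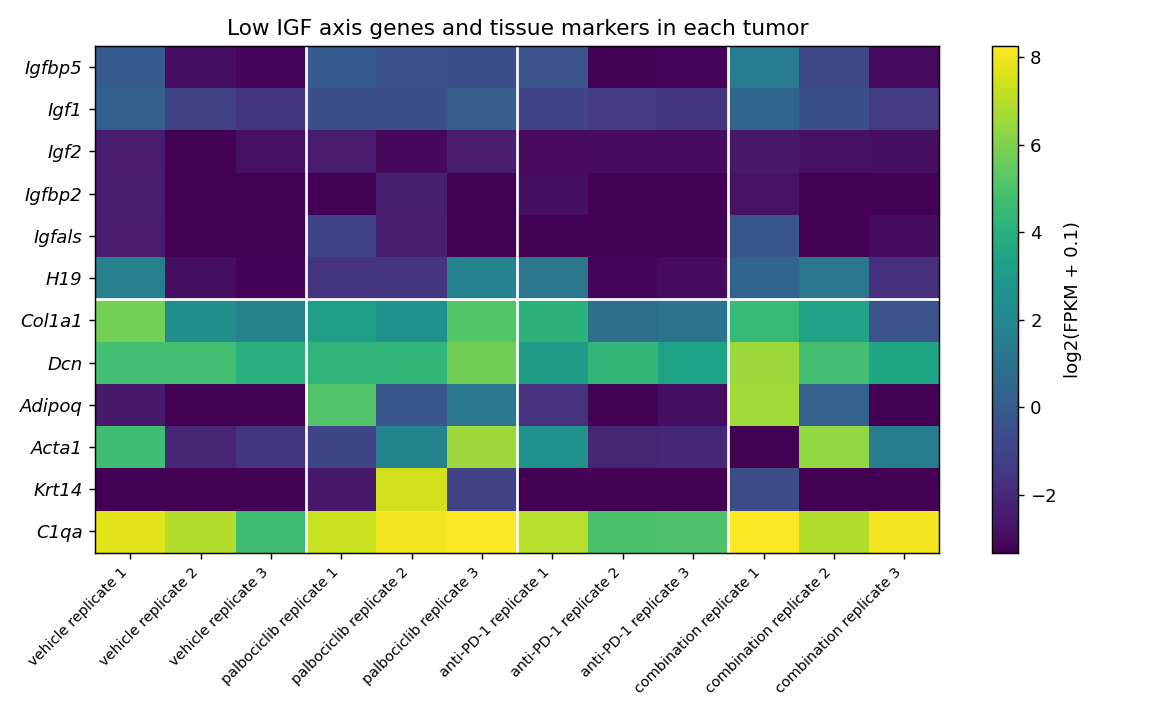
Color gives log2(FPKM + 0.1) of Igfbp5, Igf1, Igf2, Igfbp2, Igfals and the imprinted RNA gene H19 (above the horizontal line) and of markers of fibroblasts (Col1a1, Dcn), adipocytes (Adipoq), muscle (Acta1), skin (Krt14) and macrophages (C1qa) in the 12 tumors, with arms divided by vertical lines. Igfbp5 and H19 are higher in the same 7 tumors, in which Col1a1 is also higher, while Igf2 and Igfbp2 are near the lower end of the scale in all 12.

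Igf1r (chr7:67952827-68233668, plus strand), the signaling receptor, was measured at 11.02, 14.2 and 15.05 FPKM in vehicle tumors and 7.53, 10.05 and 14.1 FPKM in anti-PD-1 tumors. Palbociclib tumors had 11.7, 9.24 and 6.78 FPKM, and combination tumors 6.93, 8.54 and 8.19 FPKM. Combination tumors were all below vehicle tumors, as in 11.6% of all tested genes. Neighbouring arms in the order of means (vehicle, anti-PD-1, palbociclib, combination) overlapped. The combination differed from vehicle by -0.75 (SE 0.24, 95% confidence interval -1.28 to -0.22, limma adjusted p = 0.205), and the palbociclib effect was -0.47 (SE 0.17, 95% confidence interval -0.84 to -0.09, limma adjusted p = 0.171). Igf1r and Igfbp3 were the 2 genes of the axis with an unadjusted limma p under 0.05 for the palbociclib effect, 2 of 8 where 20.5% of all tested genes had one. Rbm15, Fbxo42 and Rreb1 were the genes most like Igf1r (r of 0.955 to 0.962). Across the 12 tumors Igf1r correlated with Igfbp3 at r = 0.750 (rho = 0.699). This r was the highest of the 15 pairs among the 6 genes of the axis with a mean of at least 1 FPKM. Igf1r and Igfbp4 had the same rho of 0.699 (r = 0.664). The tumors of all arms were pooled, so differences between arms enter these values.

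Igf2r (chr17:12682406-12769664, minus strand) ranged from 35.5 to 54.2 FPKM. Arm means were 45.01 ± 3.96 in palbociclib, 44.7 ± 9.37 in anti-PD-1, 43.0 ± 4.51 in vehicle and 38.1 ± 1.23 in combination tumors. The combination tumors (38.0, 36.9 and 39.4 FPKM) lay below the 3 vehicle tumors (40.1, 40.65 and 48.2 FPKM), as in 11.6% of all tested genes. The difference was only -0.17 (SE 0.14, 95% confidence interval -0.48 to 0.14, limma adjusted p = 0.545). The palbociclib effect was -0.07 (95% confidence interval -0.29 to 0.15). Airn, the antisense RNA gene that overlaps Igf2r and silences its paternal copy, had a mean of 1.84 FPKM, and its reads may not be separate from those of Igf2r where strand was not used.

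Across the comparisons, 4 of the 8 tested genes (Igfbp3, Igfbp4, Igf1r and Igf2r) had all combination tumors below all vehicle tumors, against 11.6% of all tested genes. For palbociclib against vehicle only Igfbp3 was separate in this way (6.47% of all tested genes lower). For combination against anti-PD-1 Igfbp3 and Igfbp7 were (7.49% lower). The comparisons with vehicle share the vehicle tumors. By the limma test, 0 of 8 passed in each single comparison of arms, with 2 at an unadjusted p under 0.05 for palbociclib against vehicle (Igfbp3 and Igf1r), 2 for combination against anti-PD-1 (Igfbp3 and Igfbp7), 3 for combination against vehicle (Igfbp3, Igfbp4 and Igf1r), 1 for anti-PD-1 against vehicle (Igfbp7), 1 for the interaction (Igfbp7) and 0 for combination against palbociclib. Over all tested genes the adjusted test passed 0.143%, 0.00651%, 0.013%, 0%, 0% and 0.00651%, in that order, and an unadjusted p under 0.05 was reached by 13.8%, 11.8%, 17%, 8.4%, 5.73% and 4.52%.

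Of 54 other genes of the pathway, 46 were tested and 0 passed the limma test for the palbociclib effect. At an unadjusted p under 0.05, 7 were lower and 2 higher, so 9 of 46 against 20.5% of all tested genes. The median difference of the 46 was -0.09, and that of all tested genes was 0.06. Among listed genes that carry IGF or encode an IGFBP-type domain, Esm1 (above) had the largest difference, and Kazald1 and Crim1 had -0.45 and -0.23. Igfals went the other way, at 0.98 (SE 0.56, limma adjusted p = 0.342). Igfals, the subunit of the serum complex with IGFBP3, reached 0.769 FPKM in combination replicate 1 and 0.409 in palbociclib replicate 1, the 2 tumors with the highest adipocyte markers. Igfbp1, which lies 3.54 kb from Igfbp3, was listed at 0 in all tumors except anti-PD-1 replicate 3 (0.0354 FPKM).

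Among the proteases and their inhibitors, Htra1, a secreted serine protease that cleaves binding proteins, was abundant (48.95 to 75.85 FPKM, effect 0.23), and Stc1, a stanniocalcin that inhibits PAPPA, was lower at an unadjusted p under 0.05 (-0.66, SE 0.29, limma adjusted p = 0.232). Pappa, the protease that acts on IGFBP4, did not exceed 0.0657 FPKM. Of the insulin receptors and adaptors, Insr (-0.26) and Irs2 (-0.38) had an unadjusted p under 0.05, and Irs1 (0.07) did not. Akt1, which encodes a kinase downstream of the receptor, ranged from 54.4 to 90.2 FPKM and its effect was 0.17. The growth hormone receptor gene Ghr had 1.37 to 5.46 FPKM and an effect of 0.31 (limma adjusted p = 0.454). Of the 12 imprinted genes listed with Igf2 and Igf2r, Ndn was higher at an unadjusted p under 0.05 (0.34, SE 0.14, limma adjusted p = 0.215). Of the 3 genes for IGF2 mRNA-binding proteins, Igf2bp2 was the abundant one (9.77 to 25.1 FPKM), with an effect of -0.27 and a limma adjusted p of 0.538.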

How the data were processed

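Bulk RNA-sequencing of 12 tumors in 4 arms of 3 was analysed as FPKM, as deposited. The authors made 1 FPKM table per tumor; HISAT2 and GRCm38 (mm10) are named in the submitters' processing notes, while the counting tool, strand setting and annotation are not given in the sources used here. Among 34745 entries, 67 were repeats of a symbol, for which only the most abundant entry was used. Depth, inferred from steps of the low FPKM values, was 14900000 to 20300000 fragments per tumor. A linear model with 1 mean per arm was fitted by limma (version 3.58.1, R 4.3.3, eBayes with a trend) to log2(FPKM + 0.1) of the 15350 genes averaging 0.1 FPKM or more. Two-sided p-values were adjusted over all of these by Benjamini-Hochberg, with a threshold of 0.05. Folds are on this scale, which understates changes of low genes. The code was tested on simulated data. The labels do not say that each tumor came from a separate mouse, so p-values measure the spread between these tumors. Positions are from GENCODE M21, promoters from RefSeq (GRCm38.p6), and tables were handled in Python 3.11.15.

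The members and lists were chosen with earlier results of these data known. Genes named were all members, genes of the lists, and the 3 genes with the highest r to Igfbp3, Igfbp4 and Igf1r. Such genes were also found for Igfbp6, Igfbp7 and Igf2r (highest r of 0.84, 0.83 and 0.93) and are not named. Alternatives changed the pseudocount, filter, scaling, eBayes trend, replicate block, arms fitted and tumors left out.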

Additional observations from a re-analysis of the deposited data

How the results depend on the processing

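Of the 22 alternatives for the palbociclib effect, Igfbp3 was negative in all 22 (-2.31 to -1.79) and had a limma adjusted p under 0.05 in 8. Over single tumors left out, its limma adjusted p was 0.0208 to 0.146. The number of the 8 tested members called, 1 as reported, was 0 with a pseudocount of 1, without a filter on low values and with eBayes without a trend. It was also 0 without the 3 tumors with the highest muscle markers, a setting chosen after seeing the data. These were vehicle replicate 1, palbociclib replicate 3 and combination replicate 2 (Igfbp3 -2.23, limma adjusted p = 0.0634). Another setting left out the 4 tumors palbociclib and combination replicates 1 and 2, which earlier results showed high in fat, muscle or skin genes. It kept only replicate 3 in each palbociclib-treated arm, so only effect sizes are given for it (Igfbp3 -2.00). Leaving out single tumors gave 0 to 2 members, with 2 (Igfbp3 and Igfbp4) without anti-PD-1 replicate 1. Other pathway genes called, 0 as reported, numbered 0 to 3 when single tumors were left out: Esm1 without vehicle replicate 1 or combination replicate 2, and Esm1, Crim1 and Stc1 without anti-PD-1 replicate 1. Member counts in the other 6 comparisons stayed at 0 in every alternative run.

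Over single tumors left out, the palbociclib effect ranged from -0.0416 to 0.111 for Igfbp6 and from -0.148 to 0.00422 for Igf2r. The sign of small palbociclib effects changed for Igfbp6 with quantile normalization (-0.0214), without the same 4 tumors (-0.0618), without the 3 tumors (-0.0626), and without vehicle replicate 3 (-0.00348), palbociclib replicate 3 (-0.0220) or combination replicate 1 (-0.0416), for Igfbp7 without the 4 tumors (0.0690) and for Igf2r without anti-PD-1 replicate 3 (0.00422). The causes were not tested.

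Over all genes the palbociclib effect had 48 calls. This count was 70 with a filter at 1 FPKM, 11 with no filter, 0 without a trend, 154 without the 3 tumors and 0 to 758 on leaving out single tumors (758 without anti-PD-1 replicate 1, 692 without vehicle replicate 1). With the replicate block it was 129, and 1 member was called, Igfbp3 (adjusted p = 0.0350). Whether replicate numbers pair the tumors is not known. Deviations from the arm means correlated at -0.213 to 0.453 for same-numbered tumors (median 0.0277, 18 pairs). For tumors with different numbers they correlated at -0.354 to 0.309 (median -0.0131, 36 pairs). By these correlations 5 of 12 tumors were most like their own number. With 3 tumors per arm, these values cannot exclude a pairing. Depth limits Igfbp2 and Igf2, at an estimated 8 and 52 fragments in all.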
